A study of Arabidopsis thaliana with 126 samples.

Results

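The 10 genes described here encode ethylene response factors (ERFs), plant transcription factors that bind DNA through a single AP2/ERF domain. Members were taken by locus identifier from the 2 RNA-seq tables, and all 10 were found in each, out of 33602 genes per table. They are 5 activators of group IX, ERF1A (AT4G17500), ERF1B (AT3G23240, the gene usually called ERF1), ERF2 (AT5G47220), ERF5 (AT5G47230) and ERF6 (AT4G17490), and 5 repressors of group VIII, ERF3 (AT1G50640), ERF4 (AT3G15210), ERF8 (AT1G53170), ERF9 (AT5G44210) and ERF11 (AT1G28370). All libraries came from 3-day-old etiolated *Arabidopsis* seedlings, that is, whole seedlings grown in the dark. In the Landsberg *erecta* (Ler) background the genotypes were ein2-45, ein6-1 een-1, een-1, ein6-1 and Ler itself, each given ethylene (ET) gas for 4 hr or kept in hydrocarbon-free air. In the Col-0 background arp5-1, ino80-8, een-2 and Col-0 were sampled in air only. Each of these groups had 2 libraries, described by the study as biological replicates, so every mean below has n = 2.

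The ein2-45 allele is a point mutation in the region encoding the carboxyl end of EIN2, the central membrane protein of the ET pathway. The ein6-1 allele is a small deletion with a premature stop in the gene for the H3K27me3 demethylase REF6 (EIN6), and een-1 is an inversion that breaks the gene for EEN, a subunit of the INO80 chromatin remodelling complex. The double mutant ein6-1 een-1 carries both lesions. In Col-0, een-2 and ino80-8 are T-DNA insertion alleles of EEN and of INO80 itself, and arp5-1 is a mutant of the complex subunit ARP5. Each genotype is a single line, so a difference between lines includes anything else that the line carries.

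ET is perceived by membrane receptors that hold the kinase CTR1 active. Upon ET binding, EIN2 is released from inhibition, and the transcription factors EIN3 and EIL1 accumulate and switch on a first set of genes, of which ERF1B is the textbook example. The ERF proteins in turn bind the GCC box (GCCGCC) in promoters of defence and growth genes. Group IX factors activate from this site, whereas the group VIII factors studied here repress from it through a short EAR (ERF-associated amphiphilic repression) motif near the carboxyl end.

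The EAR motif that separates the classes was found in the reading frame of each of the 5 repressors and of none of the 5 activators. It was searched as Asp-Leu-Asn, any 2 residues, then Pro, in the longest coding sequence that RefSeq annotates per gene on TAIR10.1, and occurs in 187 of 27444 annotated proteins (0.681%). The following 18-base stretches encode it, with the codons of the 4 fixed residues in capitals. They are shown because they are the feature that defines the repressor class.
ERF3: GATCTTAATtttccaCCG
ERF4: GATCTTAATttgcctCCT
ERF8: GATCTTAACttagctCCT
ERF9: GATCTTAACctagctCCA
ERF11: GATCTTAATttccctCCT
These lie at chr1:18757665-18757682 (minus strand) for ERF3, chr3:5122105-5122122 (plus strand) for ERF4, chr1:19821551-19821568 (minus strand) for ERF8, chr5:17807309-17807326 (plus strand) for ERF9 and chr1:9956366-9956383 (minus strand) for ERF11. The motif ends 3 residues before the end of the ERF8 protein, 4 before that of ERF11, 5 before those of ERF4 and ERF9, and 20 before that of ERF3. In all 5 genes the codons for Asp and Leu are the same, and those for Asn and Pro vary.

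All 10 genes are annotated with a single exon, and no other annotated gene overlaps any of them. They are spread over 4 chromosomes, and some lie close together. ERF6 (chr4:9752824-9754161, minus strand) and ERF1A (chr4:9759203-9760391, plus strand) are divergent neighbours with 5041 bases between them. ERF2 (chr5:19171643-19172956, minus strand) and ERF5 (chr5:19179881-19181182, plus strand) are 6924 bases apart, with the gene AT5G47229 between them. ERF11 (chr1:9955774-9956980, minus strand) is next to another group VIII gene, ERF12, at 2668 bases. ERF1B (chr3:8295617-8296604, plus strand) is next to TDR1, also a group IX ERF gene, at 5452 bases. The other members are ERF3 (chr1:18756972-18758708, minus strand), ERF4 (chr3:5121303-5122562, plus strand), ERF8 (chr1:19821337-19822399, minus strand) and ERF9 (chr5:17806397-17807541, plus strand).

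The 250 bases before the annotated start of the members were searched on both strands for the GCC box GCCGCC and for ATGTA, the core of the sequence bound by EIN3. These words do not overlap each other. Of all 27443 protein-coding promoters of this length, 1.87% hold GCCGCC and 52.0% hold ATGTA. ERF11 was the one member with a GCC box in this window, at 28 to 23 bases before its start. ATGTA was found once in ERF1A and in ERF8, at 2 places in ERF1B and in ERF9, at 3 places in ERF4, and in none of the windows of ERF2, ERF5, ERF6, ERF3 and ERF11. The windows of ERF11, ERF2 and ERF1B are printed, with these words in capitals on either strand, because these 3 genes had the largest log2 changes after ET in Ler.
ERF11: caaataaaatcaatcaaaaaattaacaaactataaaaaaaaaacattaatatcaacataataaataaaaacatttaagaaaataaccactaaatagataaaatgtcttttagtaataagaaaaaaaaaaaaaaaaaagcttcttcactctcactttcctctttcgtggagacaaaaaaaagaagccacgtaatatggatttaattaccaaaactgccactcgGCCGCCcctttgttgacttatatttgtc
ERF2: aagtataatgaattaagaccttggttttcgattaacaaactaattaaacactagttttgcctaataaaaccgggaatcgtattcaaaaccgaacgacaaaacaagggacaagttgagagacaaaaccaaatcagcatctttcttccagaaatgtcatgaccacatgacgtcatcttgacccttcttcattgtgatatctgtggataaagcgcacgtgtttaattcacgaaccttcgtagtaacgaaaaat
ERF1B: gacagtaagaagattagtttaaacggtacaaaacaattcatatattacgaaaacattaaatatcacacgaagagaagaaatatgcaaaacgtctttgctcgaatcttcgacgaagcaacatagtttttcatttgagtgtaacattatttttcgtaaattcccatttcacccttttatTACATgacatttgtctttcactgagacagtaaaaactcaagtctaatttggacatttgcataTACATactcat
These windows are chr1:9956981-9957230 (minus strand), chr5:19172957-19173206 (minus strand) and chr3:8295367-8295616 (plus strand) of TAIR10.1. A match is a description of the letters only.

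Levels are in TPM, a unit corrected for transcript length that sums to the same total in each library. The TPM scale depends on how much ribosomal RNA a library holds, and annotated rRNA genes took 2.80% to 23.5% of the TPM in the Ler-background libraries, highest in ein6-1 ET replicate 2, and 0.921% to 3.54% in the Col-0 background. The median tested gene in Ler was 0.25 higher after ET on the log2 scale, and 0.02 higher once each library was divided by its median-of-ratios factor (the median, over genes above 0 in every library, of its ratio to the geometric mean). That rescaling turned 3054 genes higher and 961 lower into 1815 higher and 2637 lower, so each change below is set beside the median of all tested genes and, where it matters, beside its rescaled value. Replicates correlated at r = 0.974 to 0.990 over tested genes. EEN had 0.32 and 1.01 TPM in een-2, against 38.6 and 50.3 TPM in Col-0, and INO80 had 2.87 and 3.41 TPM in ino80-8, against 19.0 and 20.5 TPM in Col-0, while the lesions of the Ler-background alleles did not lower the TPM of EIN6 or EEN. Markers of dark-grown seedlings (PORA, PORB and HLS1) summed to 397 TPM or more in every library. The summed TPM of 3 seed storage genes (CRU1, OLEO1 and SESA1) differed widely between genotypes, from 4874 to 5124 in ein6-1 een-1 air and from 12.7 to 15.5 in ein6-1 air, against 715 to 738 in Ler air. Whether fewer cells of a type express a gene or each cell holds less of its RNA cannot be told apart in whole seedlings.

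Levels differed widely among the members. In Ler air the repressor ERF3, one of the first ERF repressors described, was the most abundant at 32.4 ± 0.269 TPM (mean ± SD), and the activator ERF1B was the least at 0.765 ± 0.0636 TPM. ERF3 was the highest member in 8 of the 10 groups of the Ler background, and ERF4 in the other 2, both of ein2-45. The plot of TPM by library for each gene shows 2 kinds of pattern. In ERF11, ERF2, ERF1B and ERF9 the ET libraries of Ler, ein6-1 and een-1 stand above every air library. In ERF3, ERF4 and ERF6 no such separation was seen. How many of all tested genes have separate libraries was not computed, so separation is a description only wherever it is given.

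**Figure D1:**
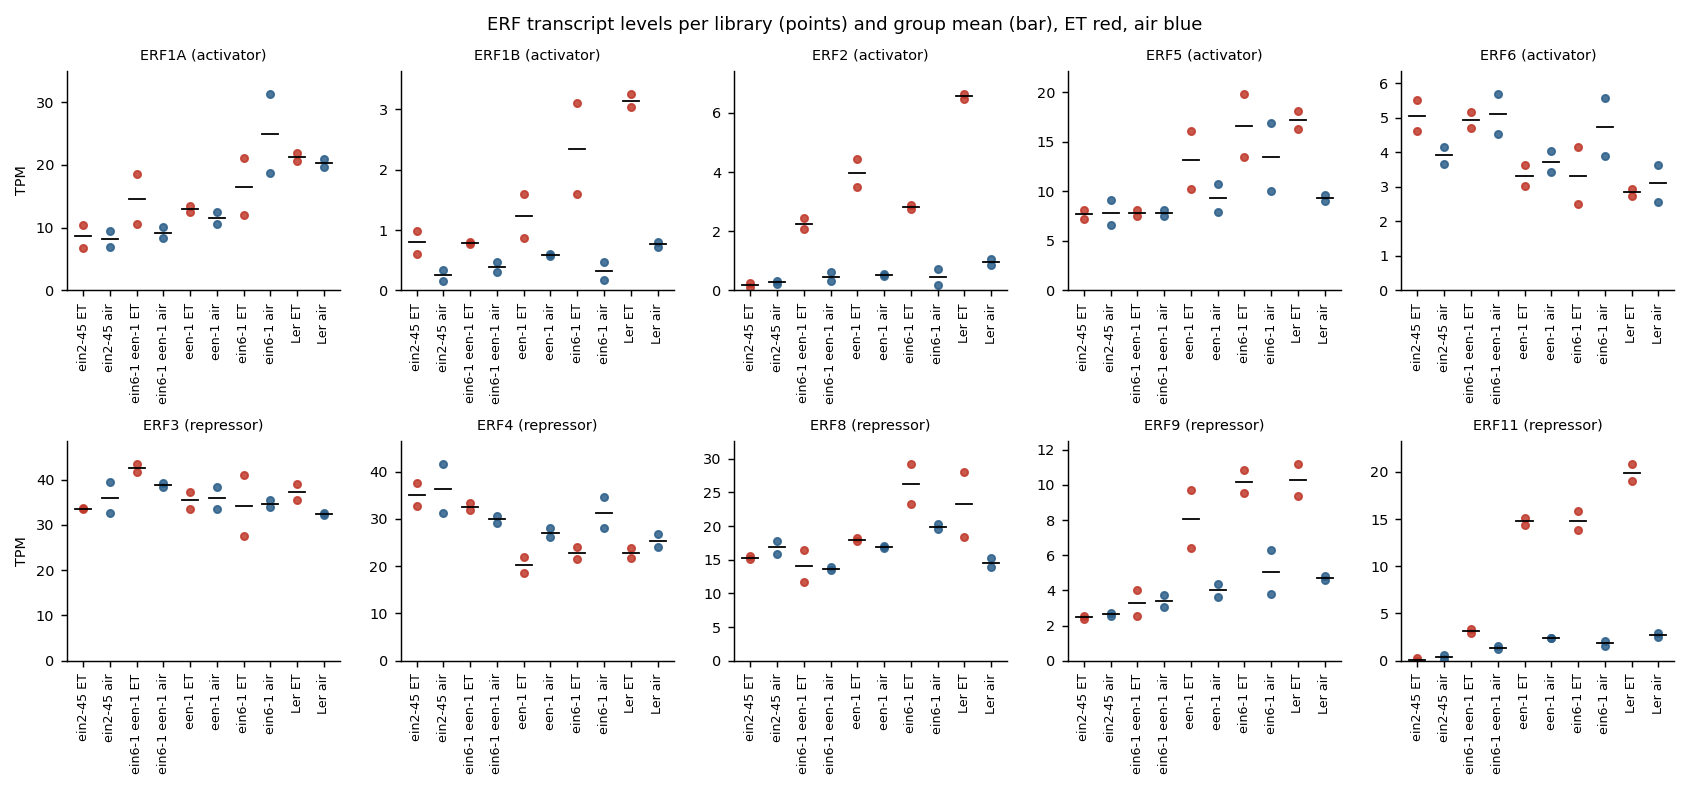
Transcript level (TPM, y axis, one scale per gene) of the 5 activators (top) and 5 repressors (bottom) in each library of the Ler background (points, ET red and air blue) with the mean of each group of 2 (bar). ERF11 reached 19.1 to 20.8 TPM in Ler ET and 0 to 0.24 TPM in ein2-45 ET, while ERF3 lay between 27.5 and 43.4 TPM in every library.

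The first comparison asks which of these genes respond to 4 hr of ET in wild-type seedlings. In Ler, 3 of 5 activators (ERF2, ERF1B and ERF5) and 3 of 5 repressors (ERF11, ERF9 and ERF8) rose and none fell, with the other 4 not passing the test (adjusted p below 0.05, limma with Benjamini-Hochberg adjustment over all 20592 tested genes). Of all tested genes, 19.5% were called (3054 higher and 961 lower), and 21.7% after rescaling (1815 higher and 2637 lower). The median log2 fold change was 0.82 for the activators and 0.61 for the repressors, against 0.25 for all tested genes, and 0.57 and 0.35 against 0.02 after rescaling.

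ERF11, a repressor that binds the promoters of ACC synthase genes and so limits ET synthesis, had 20.8 and 19.1 TPM in Ler ET, against 2.97 and 2.52 TPM in Ler air. Both ET libraries lie far above both air libraries, and the ratio of the means is 7.26. On the log2(TPM + 1) scale, which understates changes of low genes, the change was 2.48 (SE 0.21, adjusted p = 2.21e-07). ERF2, an activator of jasmonate- and ET-responsive defence genes, had 6.63 and 6.48 TPM in Ler ET, against 0.86 and 1.08 TPM in Ler air. Its log2 fold change was 1.94 (SE 0.22, adjusted p = 6.55e-06). ERF1B, the EIN3 target that is sufficient to switch on part of the ET response when overexpressed, had 3.03 and 3.25 TPM in Ler ET, against 0.72 and 0.81 TPM in Ler air. Its groups do not overlap, and its log2 fold change was 1.23 (SE 0.24, adjusted p = 0.00205). These 3 genes were called after rescaling and without any 1 library.

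ERF9, a repressor with a role in defence against fungi, had 9.38 and 11.2 TPM in Ler ET, against 4.59 and 4.80 TPM in Ler air. The change of 0.98 (SE 0.24, adjusted p = 0.00996) passed with all libraries, but not without Ler air replicate 1 (adjusted p = 0.0806) or Ler ET replicate 2 (adjusted p = 0.0881). ERF5, an activator that takes part in chitin and stress responses, had 18.1 and 16.3 TPM in Ler ET, against 9.65 and 8.97 TPM in Ler air. Its log2 fold change was 0.82 (adjusted p = 0.0328) and was 0.57 after rescaling (adjusted p = 0.0762), and without any 1 of the 4 Ler libraries the adjusted p was 0.0993 to 0.136. With no TPM minimum it was 0.0577. ERF8, a repressor linked to leaf senescence, had 28.0 and 18.4 TPM in Ler ET, against 13.9 and 15.2 TPM in Ler air. The ET replicates of ERF8 differ more from each other than the air replicates do. Its log2 fold change of 0.61 (adjusted p = 0.0408) was 0.35 after rescaling (adjusted p = 0.198), and it was 0.32 without Ler ET replicate 1 (adjusted p = 0.349), so the call on ERF8 depends on the scaling and on single libraries.

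Of the members that did not pass in Ler, ERF6 was low and the others were abundant. ERF3 had 35.6 and 39.1 TPM in Ler ET, against 32.2 and 32.5 TPM in Ler air, a log2 fold change of 0.20 that lies below the median of all tested genes. ERF4, a repressor of jasmonate-responsive defence genes, had 21.8 and 23.9 TPM in Ler ET, against 26.9 and 24.0 TPM in Ler air (log2 fold change -0.15, 95% interval -0.51 to 0.22). ERF1A, an activator named for its binding to the GCC box, had 20.7 and 21.9 TPM in Ler ET, against 21.0 and 19.7 TPM in Ler air (log2 fold change 0.06). ERF6, a target of stress-activated MAP kinases, had 2.75 and 2.95 TPM in Ler ET, against 3.65 and 2.57 TPM in Ler air (log2 fold change -0.08). So the divergent neighbours ERF6 and ERF1A both missed the threshold, while of the other neighbouring pair ERF2 and ERF5 both passed it. The call on ERF5 was lost after rescaling, with no TPM minimum and without any 1 Ler library.

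Touch and wounding change several ERF transcripts, and 14 genes of touch and wounding (TCH2, TCH3, TCH4, ZAT10, ZAT12, WRKY33, WRKY40 and WRKY53 among them) summed to 249 to 257 TPM in Ler ET, against 177 to 195 TPM in Ler air. Of these, 12 passed the filter, 3 rose and 1 fell, none was at 0 in every library, and their median log2 fold change was 0.18, or -0.03 after rescaling. The dark markers (PORA, PORB and HLS1) summed to 1521 to 1557 TPM in Ler ET, against 698 to 844 TPM in Ler air. The photosynthesis genes RBCS1A, LHCB2.4 and LHCB1.5 summed to 1707 to 2368 TPM in Ler ET, against 1019 to 1267 TPM in Ler air. Of these 3 photosynthesis genes 1 was called higher after ET, and 0 after rescaling. The part of all these markers in the ERF changes was not tested.

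**Figure D2:**
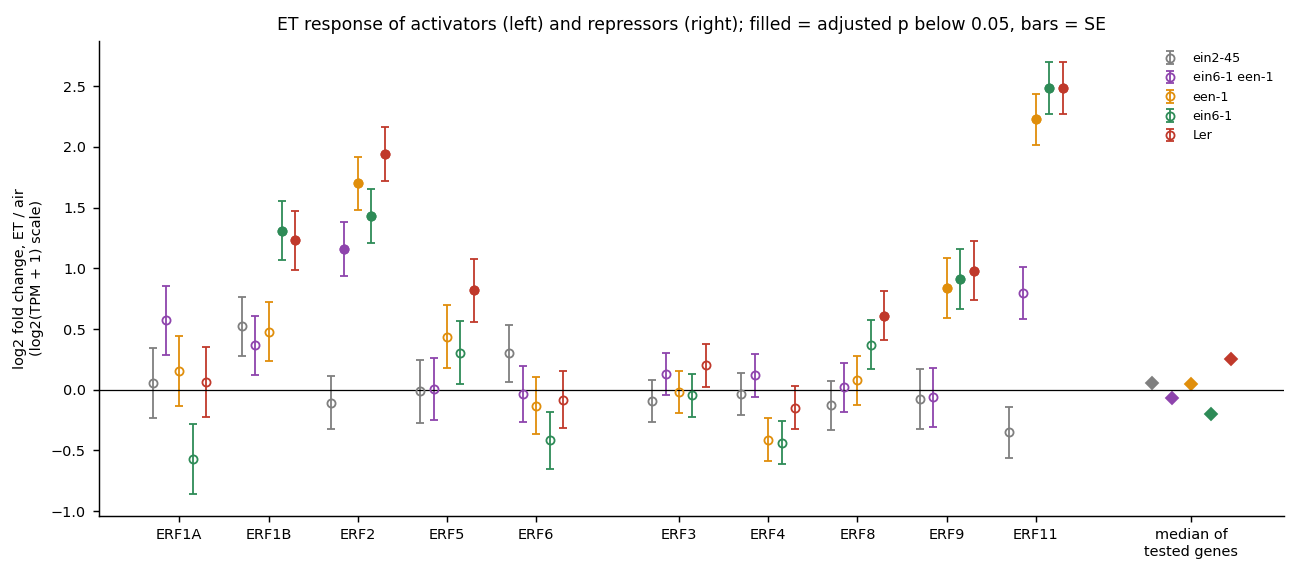
Log2 fold change of ET over air on the log2(TPM + 1) scale (y axis) for each gene in ein2-45, ein6-1 een-1, een-1, ein6-1 and Ler (colours), with the standard error as bars and filled points where the adjusted p is below 0.05; diamonds give the median of all tested genes. ERF11, ERF2 and ERF9 are filled in Ler, ein6-1 and een-1, and no point of ein2-45 is filled.

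The same comparison was then made in the single mutants. In ein6-1, 4 of 10 members rose (ERF11, ERF2, ERF1B and ERF9), against 11.4% of all tested genes called (400 higher and 1957 lower). ERF11 had 15.9 and 13.8 TPM in ein6-1 ET, against 2.10 and 1.58 TPM in ein6-1 air, a log2 fold change of 2.48 (SE 0.21, adjusted p = 1.99e-07). ERF2 had 2.90 and 2.75 TPM in ein6-1 ET, against 0.71 and 0.18 TPM in ein6-1 air (log2 fold change 1.43, adjusted p = 0.000198). ERF1B had 3.11 and 1.59 TPM in ein6-1 ET, against 0.47 and 0.18 TPM in ein6-1 air (log2 fold change 1.31, adjusted p = 0.00114). In each of these 3 genes both ET libraries lie above both air libraries.

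ERF9 changed by 0.91 in ein6-1 (adjusted p = 0.0188), with 10.8 and 9.54 TPM in ein6-1 ET, against 6.32 and 3.81 TPM in ein6-1 air, and without ein6-1 air replicate 2 the adjusted p was 0.219. A fit to the ein6-1 libraries alone gave an adjusted p of 0.467. The median tested gene in ein6-1 was lower after ET, at -0.20, with 23.5% rRNA in ET replicate 2. After rescaling this median was 0.03, 15.8% of tested genes were called, and ERF8 passed as well (log2 fold change 0.65, adjusted p = 0.0278, against 0.37 before). Without ein6-1 ET replicate 2 the 3 strongest members stayed above the threshold, and without replicate 1, which leaves the library richest in rRNA, ERF1A, ERF6 and ERF4 passed as lower (adjusted p = 0.0184, 0.0244 and 0.0281).

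In een-1, 3 of 10 members rose (ERF11, ERF2 and ERF9), against 7.35% of tested genes called (477 higher and 1037 lower). ERF11 had 15.2 and 14.4 TPM in een-1 ET, against 2.37 and 2.37 TPM in een-1 air, a log2 fold change of 2.23 (SE 0.21, adjusted p = 1.12e-06). ERF2 had 3.51 and 4.43 TPM in een-1 ET, against 0.57 and 0.48 TPM in een-1 air (log2 fold change 1.70, adjusted p = 3.83e-05). ERF1B had 1.60 and 0.87 TPM in een-1 ET, against 0.57 and 0.60 TPM in een-1 air, and its change of 0.48 did not pass (adjusted p = 0.29). The groups of ERF1B do not overlap, but its ET replicates differ by more than the gap between groups. ERF9 had 9.69 and 6.43 TPM in een-1 ET, against 4.38 and 3.63 TPM in een-1 air. Its change of 0.84 was close to the threshold (adjusted p = 0.0424), and the adjusted p was 0.117 without een-1 air replicate 1, 0.222 without een-1 air replicate 2 and 0.347 without een-1 ET replicate 1, with the call lost in 11 of the 20 fits that left out 1 library. It was lost as well with no TPM minimum (adjusted p = 0.067) and with a pseudocount of 0.1 TPM (adjusted p = 0.0554).

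The difference in ET response between each single mutant and Ler was tested directly. For ein6-1 none of the 10 members passed in the limma fit, and 0.0146% of all tested genes were called. An unadjusted p below 0.05 was reached by none of the members and by 4918 of the 20592 tested genes. For een-1 none passed, and 0% of tested genes were called, while 1 member (ERF1B) and 1285 tested genes had an unadjusted p below 0.05. The difference for ERF11 was 0.00 in ein6-1 (95% interval -0.63 to 0.63) and -0.26 in een-1 (-0.88 to 0.37). For ERF2 it was -0.51 in ein6-1 (-1.16 to 0.14) and -0.24 in een-1 (-0.89 to 0.41), and for ERF1B 0.08 in ein6-1 (-0.64 to 0.80) and -0.75 in een-1 (-1.47 to -0.04). These intervals are wide, since each group has 2 libraries. ERF2 and ERF1B were low in air, where the log2(TPM + 1) scale understates changes, so their differences depend on the air level too. The ratio of the means, ET over air, was 6.76 for ERF2 in Ler, 6.35 in ein6-1 and 7.56 in een-1. For ERF1B it was 4.10 in Ler, 7.23 in ein6-1 and 2.11 in een-1. These ratios rest on low air values, and their differences were not tested. Without ein6-1 ET replicate 1, the library richest in rRNA stands alone for ein6-1 ET, and ERF1A (-1.01, adjusted p = 0.0406) and ERF3 (-0.53, adjusted p = 0.0225) passed as smaller responses.

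In the double mutant 1 of 10 members, ERF2, passed the test, against 0.379% of tested genes called (57 higher and 21 lower). ERF2 had 2.45 and 2.07 TPM in ein6-1 een-1 ET, against 0.31 and 0.62 TPM in ein6-1 een-1 air. Both ET libraries stood above every air library of the Ler background, yet the call is lost without any 1 of the 4 double-mutant libraries (adjusted p = 0.0563 to 0.395). It is also lost with a pseudocount of 0.1 TPM (adjusted p = 0.0984) and with a minimum of 5 TPM (adjusted p = 0.0565). ERF11 had 3.31 and 2.96 TPM in ein6-1 een-1 ET, against 1.54 and 1.23 TPM in ein6-1 een-1 air (log2 fold change 0.80, 95% interval 0.35 to 1.24, adjusted p = 0.167). Its ET libraries in the double mutant overlap the Ler air values of 2.97 and 2.52 TPM. ERF9 had 2.53 and 4.01 TPM in ein6-1 een-1 ET, against 3.75 and 3.06 TPM in ein6-1 een-1 air, and the groups overlap.

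The response of ERF11 in the double mutant was smaller than that in Ler by a tested difference of -1.69 (SE 0.30, 95% interval -2.31 to -1.06, adjusted p = 0.00275), the one member to pass, against 3.7% of all tested genes. With a pseudocount of 0.1 TPM this call is lost at the same size of difference (adjusted p = 0.129). ERF9 differed by -1.04 (adjusted p = 0.0893), ERF1B by -0.86 (adjusted p = 0.146), ERF5 by -0.81 (adjusted p = 0.191) and ERF2 by -0.78 (adjusted p = 0.146). None of these 4 passed, although each has an unadjusted p below 0.05, as do 4793 of the 20592 tested genes. The fit shares its estimate of the spread over all groups, and ERF9 passed in the fit without ein6-1 ET replicate 1 and in that without replicate 2. For ERF2 the difference to Ler has an interval of -1.43 to -0.13. The summed TPM of the 3 seed storage genes was 3249 to 3309 in ein6-1 een-1 ET and 4874 to 5124 in ein6-1 een-1 air, against 730 to 950 in Ler ET and 715 to 738 in Ler air. The part of this difference between the seedlings in the ERF values was not tested.

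In ein2-45 no member passed after ET in the limma fit, 1 (ERF1B) had an unadjusted p below 0.05, and 0% of tested genes were called (514 with an unadjusted p below 0.05). ERF11 had 0.24 and 0 TPM in ein2-45 ET, against 0.64 and 0.23 TPM in ein2-45 air, and is thus listed at 0 in 1 library. ERF2 had 0.12 and 0.25 TPM in ein2-45 ET, against 0.32 and 0.23 TPM in ein2-45 air. ERF1B had 0.61 and 0.99 TPM in ein2-45 ET, against 0.16 and 0.34 TPM in ein2-45 air, a log2 fold change of 0.52 (95% interval 0.02 to 1.03, adjusted p = 1). The 2 groups of ERF1B do not overlap, and all 4 of its values are low. Groups do not overlap for 4 of the 10 members in this comparison, and the share over all tested genes was not computed. The response differed from that in Ler for ERF11 (-2.83, SE 0.30, adjusted p = 1.15e-05) and for ERF2 (-2.05, SE 0.31, adjusted p = 0.000519), and 3.71% of all tested genes passed this test. ERF9 differed by -1.06 (adjusted p = 0.0992) and ERF1B by -0.71 (adjusted p = 0.286). ERF9 passed this test in the fit without ein6-1 ET replicate 1 and in that without replicate 2.

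The levels in air show how much of each transcript was present without added ET. In ein2-45 air, ERF11 and ERF1A fell relative to Ler air and 8 members did not pass. Of tested genes 15.8% were called, 2360 higher and 895 lower. ERF11 had 0.64 and 0.23 TPM in ein2-45 air, against 2.97 and 2.52 TPM in Ler air, a log2 fold change of -1.40 (SE 0.21, adjusted p = 0.000128). ERF1A had 9.42 and 6.99 TPM in ein2-45 air, against 21.0 and 19.7 TPM in Ler air, a log2 fold change of -1.22 (SE 0.29, adjusted p = 0.00553). The groups of both genes are well apart. The summed TPM of the seed storage genes was 74.8 to 111 in ein2-45 air, against 715 to 738 in Ler air, that of the photosynthesis genes RBCS1A, LHCB2.4 and LHCB1.5 was 2622 to 2784 in ein2-45 air, against 1019 to 1267 in Ler air, and that of the dark markers was 1596 to 1718 in ein2-45 air, against 698 to 844 in Ler air. All 3 seed genes were called lower and all 3 photosynthesis genes higher, and their part in the ERF values was not tested. The call on ERF1A was lost without Ler air replicate 1 (adjusted p = 0.0571) and without ein2-45 air replicate 2 (adjusted p = 0.0697).

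After rescaling, 23.2% of tested genes were called in this comparison, and ERF9 (-0.82, adjusted p = 0.0145), ERF2 (-0.74, adjusted p = 0.0217) and ERF1B (-0.59, adjusted p = 0.0366) passed as lower too. Before rescaling these were -0.64, -0.63 and -0.50 and did not pass with all libraries. ERF2 and ERF9 did pass in the fit without ein6-1 ET replicate 1 and in that without replicate 2. ERF4 had 41.5 and 31.2 TPM in ein2-45 air, against 26.9 and 24.0 TPM in Ler air. Its log2 fold change was 0.49 (adjusted p = 0.0668), and 0.29 after rescaling. ERF4 passed without ein2-45 air replicate 2 (log2 fold change 0.69). It also passed in the fit without ein6-1 ET replicate 1 and in that without replicate 2.

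In ein6-1 een-1 air the same 2 genes were called lower than in Ler air. Of tested genes 34.8% were called, 5862 higher and 1297 lower. ERF1A had 10.1 and 8.36 TPM in ein6-1 een-1 air, against 21.0 and 19.7 TPM in Ler air (log2 fold change -1.06, SE 0.29, adjusted p = 0.00854). ERF11 had 1.54 and 1.23 TPM in ein6-1 een-1 air, against 2.97 and 2.52 TPM in Ler air (log2 fold change -0.65, adjusted p = 0.0237). ERF11 missed the threshold without any 1 of these 4 libraries (adjusted p = 0.0535 to 0.155) and with a pseudocount of 0.1 TPM (adjusted p = 0.107), and ERF1A without Ler air replicate 1 (adjusted p = 0.0618) or ein6-1 een-1 air replicate 2 (adjusted p = 0.0681). The median tested gene was 0.33 higher in the double mutant. After rescaling, 37.3% of tested genes were called, and ERF9 (-0.68, adjusted p = 0.025) and ERF2 (-0.59, adjusted p = 0.0424) passed as well. No member rose in either scaling with all libraries, though ERF6 had 4.54 and 5.69 TPM in ein6-1 een-1 air, against 3.65 and 2.57 TPM in Ler air (log2 fold change 0.58, adjusted p = 0.0612, and 0.0207 without ein6-1 ET replicate 1).

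In the single mutants no member passed in air. In ein6-1 the changes ran from -0.47 (ERF2) to 0.48 (ERF6), and 4.19% of tested genes were called by limma. An unadjusted p below 0.05 was reached by 2 members and by 3298 of the 20592 tested genes. In een-1, 23.7% of tested genes were called by limma, with a median of 0.32 over all tested genes. An unadjusted p below 0.05 was reached by 7972 tested genes and by 1 member. That member was ERF1A, with 10.6 and 12.5 TPM in een-1 air, against 21.0 and 19.7 TPM in Ler air, a log2 fold change of -0.77 (adjusted p = 0.0581, and 0.0225 without ein6-1 ET replicate 1). After rescaling 24.7% of tested genes were called, and ERF1A passed (-1.13, adjusted p = 0.00328). ERF1A was thus at 12.5 TPM or less in all air libraries of een-1, ein2-45 and the double mutant, against 18.7 TPM or more in those of ein6-1 and Ler. The median of the repressors in een-1 against Ler was 0.09 and turned to -0.28 with rescaling, so no direction is given for that class.

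**Figure D3:**
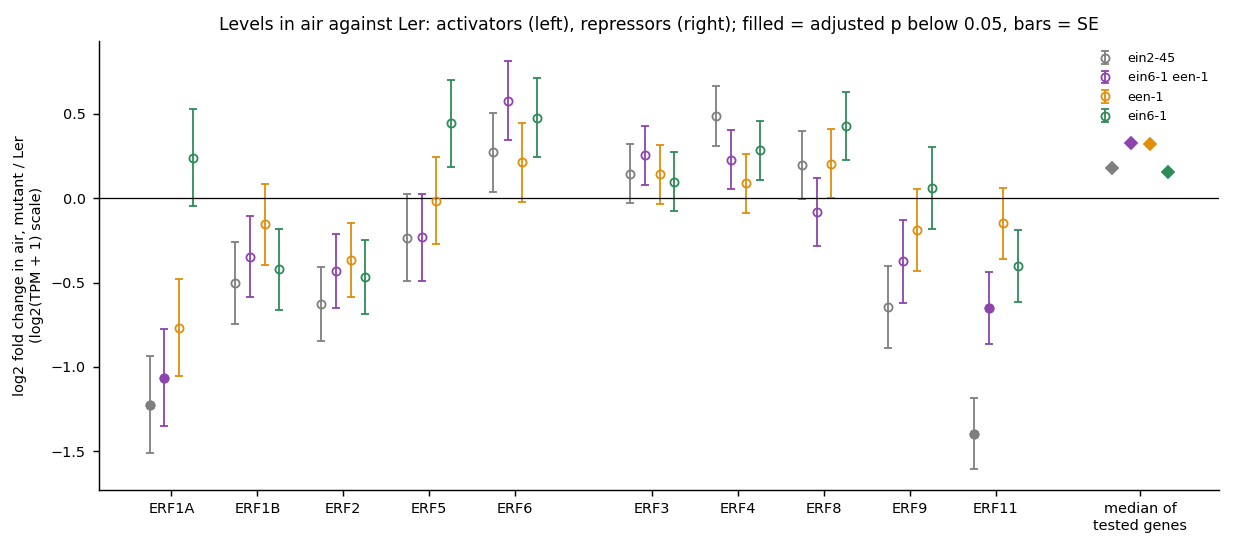
Log2 fold change in air of each mutant over Ler on the log2(TPM + 1) scale (y axis) for each gene in ein2-45, ein6-1 een-1, een-1 and ein6-1 (colours), with the standard error as bars and filled points where the adjusted p is below 0.05; diamonds give the median of all tested genes. The filled points are ERF1A and ERF11 in ein2-45 and in ein6-1 een-1, at -1.40 to -0.65.

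The order of the group means differed between the responsive genes. For ERF11 it ran Ler ET (19.9 TPM), ein6-1 ET (14.8), een-1 ET (14.8), ein6-1 een-1 ET (3.14), Ler air (2.75), een-1 air (2.37), ein6-1 air (1.84), ein6-1 een-1 air (1.39), ein2-45 air (0.435) and ein2-45 ET (0.12). In this order ein6-1 ET and een-1 ET overlap, as do ein6-1 een-1 ET and Ler air, and the 2 ein2-45 groups, while the libraries of all other neighbours are separate. For ERF2 the 5 highest groups, Ler ET (6.56 TPM), een-1 ET (3.97), ein6-1 ET (2.83), ein6-1 een-1 ET (2.26) and Ler air (0.97), are each separate from the next, and below them every neighbouring pair overlaps. For ERF9 the ET groups of Ler (10.3 TPM), ein6-1 (10.2) and een-1 (8.06) overlap in turn and stand above ein6-1 air (5.07) and Ler air (4.70), whereas ein6-1 een-1 ET (3.27) is below Ler air. For ERF1B the order ran Ler ET (3.14 TPM), ein6-1 ET (2.35), een-1 ET (1.24), ein2-45 ET (0.80), ein6-1 een-1 ET (0.79) and Ler air (0.765), all overlapping in turn, with the other air groups at lower levels.

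The genes whose group means on the log2(TPM + 1) scale were most like those of ERF11 over the 10 groups were AT4G15550 (IAGLU, an indole-acetate glucosyltransferase gene, r = 0.994), AT3G51410 (r = 0.989) and AT2G29470 (GSTU3, a glutathione transferase gene, r = 0.984), out of 16802 genes with a group mean of 5 TPM or more. IAGLU averaged 111 TPM in Ler ET, against 20.1 TPM in Ler air. For ERF1B the closest were AT2G24540 (AFR, r = 0.944), AT5G25360 (r = 0.930) and AT1G01170 (r = 0.924). These are the largest of many correlations over groups that share a table, and are given as a description only.

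The balance between the classes was taken as the share of repressor TPM in the summed TPM of the 10 genes, which does not depend on the scaling of a library. It was 69.0 ± 0.428% in Ler ET, against 69.8 ± 0.914% in Ler air, a difference of -0.83 percentage points that is within the spread of the replicates. Without ERF1A and ERF3, the most abundant member of each class, the difference was -5.11 points. The summed TPM was 165 ± 3.05 in Ler ET, against 114 ± 2.91 in Ler air, with 114 TPM of repressors and 51.0 TPM of activators in Ler ET, against 79.8 and 34.5 TPM in Ler air. In ein6-1 the share was 72.5 ± 3.12% in ET and 68.4 ± 6.38% in air, a difference of 4.14 points that was -0.37 points without air replicate 1, and in een-1 73.6 ± 2.59% in ET and 77.0 ± 3.60% in air. In ein6-1 een-1 it was 75.9 ± 2.45% in ET and 79.1 ± 0.289% in air, and in ein2-45 79.5 ± 2.86% in ET and 81.8 ± 0.0436% in air. The difference between ET and air exceeded the combined replicate SD in the double mutant (-3.23 against an SD of 2.46 points) and in none of the other 4 genotypes. Without ERF1A and ERF3 the difference in the double mutant was -0.86 points, so its size depends on these abundant members. In air the share was above that of Ler in ein2-45, the double mutant and een-1, the genotypes with the lower ERF1A values. These shares are a description with no test.

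**Figure D4:**
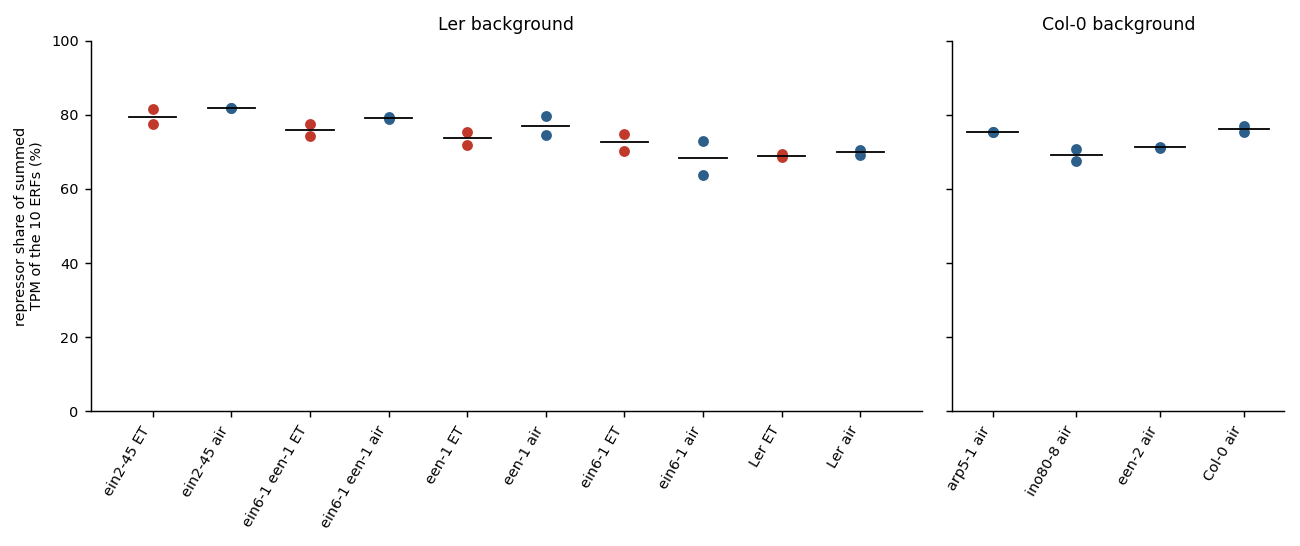
Share of the 5 repressors in the summed TPM of the 10 genes (%, y axis) in each library (points, ET red and air blue) with the mean of each group of 2 (bar), Ler background left and Col-0 background right. In Ler the ET and air shares are 69.0% and 69.8%, and in air the share is 81.8% in ein2-45.

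The last comparison asks whether loss of INO80 complex subunits alters these genes in Col-0 seedlings in air. The Col-0 libraries are in a separate table and of another background, so their levels are compared within that table only. In arp5-1, 5 of 10 members fell, the repressors ERF3, ERF4 and ERF8 and the activators ERF1A and ERF6, and none rose. Of all 20152 tested genes, 50.4% were called, a share close to that of the members when both directions are counted. These calls were 4537 higher and 5613 lower. ERF3 had 35.5 and 34.0 TPM in arp5-1, against 80.8 and 80.5 TPM in Col-0, a log2 fold change of -1.19 (SE 0.10, adjusted p = 2.18e-05). ERF8 had 11.6 and 15.7 TPM in arp5-1, against 32.1 and 27.4 TPM in Col-0 (log2 fold change -1.08, SE 0.18, adjusted p = 0.000752). ERF4 had 27.2 and 19.8 TPM in arp5-1, against 44.4 and 41.9 TPM in Col-0 (log2 fold change -0.86, adjusted p = 0.00204). In each of these repressors both mutant libraries lie far below both Col-0 libraries.

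Among the activators, ERF1A had 14.9 and 13.3 TPM in arp5-1, against 26.9 and 35.1 TPM in Col-0 (log2 fold change -1.08, SE 0.17, adjusted p = 0.000547). ERF6 had 3.35 and 3.52 TPM in arp5-1, against 8.81 and 5.46 TPM in Col-0 (log2 fold change -0.84, adjusted p = 0.00992), a call lost without Col-0 replicate 1 (adjusted p = 0.0772). ERF11 had 2.18 and 1.21 TPM in arp5-1, against 0.87 and 1.91 TPM in Col-0, and these groups overlap. ERF5 passed without Col-0 replicate 2 (adjusted p = 0.0499). The median log2 fold change in arp5-1 was -0.49 for the activators and -0.86 for the repressors, against -0.07 for all tested genes.

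In een-2 the same 3 abundant repressors fell, no activator passed, and 9.67% of tested genes were called (1041 higher and 908 lower). ERF4 had 25.2 and 20.4 TPM in een-2, against 44.4 and 41.9 TPM in Col-0 (log2 fold change -0.90, SE 0.17, adjusted p = 0.0136). ERF8 had 16.5 and 17.2 TPM in een-2, against 32.1 and 27.4 TPM in Col-0 (log2 fold change -0.78, SE 0.18, adjusted p = 0.0253). ERF3 had 58.6 and 57.0 TPM in een-2, against 80.8 and 80.5 TPM in Col-0 (log2 fold change -0.47, SE 0.10, adjusted p = 0.0228). The libraries do not overlap in any of these genes, and the calls held after rescaling. They rest on all 4 libraries, though, since ERF3 and ERF8 missed the threshold without any 1 of them (adjusted p = 0.0531 to 0.130 for ERF3 and 0.068 to 0.116 for ERF8) and ERF4 without Col-0 replicate 1, Col-0 replicate 2 or een-2 replicate 2 (adjusted p = 0.064, 0.0597 and 0.0894). ERF3 also missed it with the compared groups only (adjusted p = 0.062) and ERF8 with no TPM minimum (adjusted p = 0.0524). ERF1A changed by -0.43 in een-2 (adjusted p = 0.132), and the other activators by -0.30 to 0.13.

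In ino80-8 no member passed in the limma fit, and 2.98% of tested genes were called. An unadjusted p below 0.05 was reached by 3 members and by 3502 of the 20152 tested genes. ERF8 had 22.8 and 18.4 TPM in ino80-8, against 32.1 and 27.4 TPM in Col-0 (log2 fold change -0.51, adjusted p = 0.164). ERF4 had 31.5 and 32.9 TPM in ino80-8, against 44.4 and 41.9 TPM in Col-0 (log2 fold change -0.41, adjusted p = 0.241). ERF3 had 69.4 and 69.9 TPM in ino80-8, against 80.8 and 80.5 TPM in Col-0 (log2 fold change -0.21, adjusted p = 0.34). For these 3 repressors the ino80-8 values lie between those of the other mutants and Col-0 without overlapping Col-0. The libraries of 6 of 10 members did not overlap between ino80-8 and Col-0, although none was called. Between ET and air in ein2-45, where 0% of tested genes were called, this held for 4 of 10. The share over all tested genes was not computed, so separate libraries are a description only, here and in the other comparisons. ERF5 had 12.0 and 12.1 TPM in ino80-8, against 9.49 and 6.82 TPM in Col-0 (log2 fold change 0.53, adjusted p = 0.198).

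**Figure D5:**
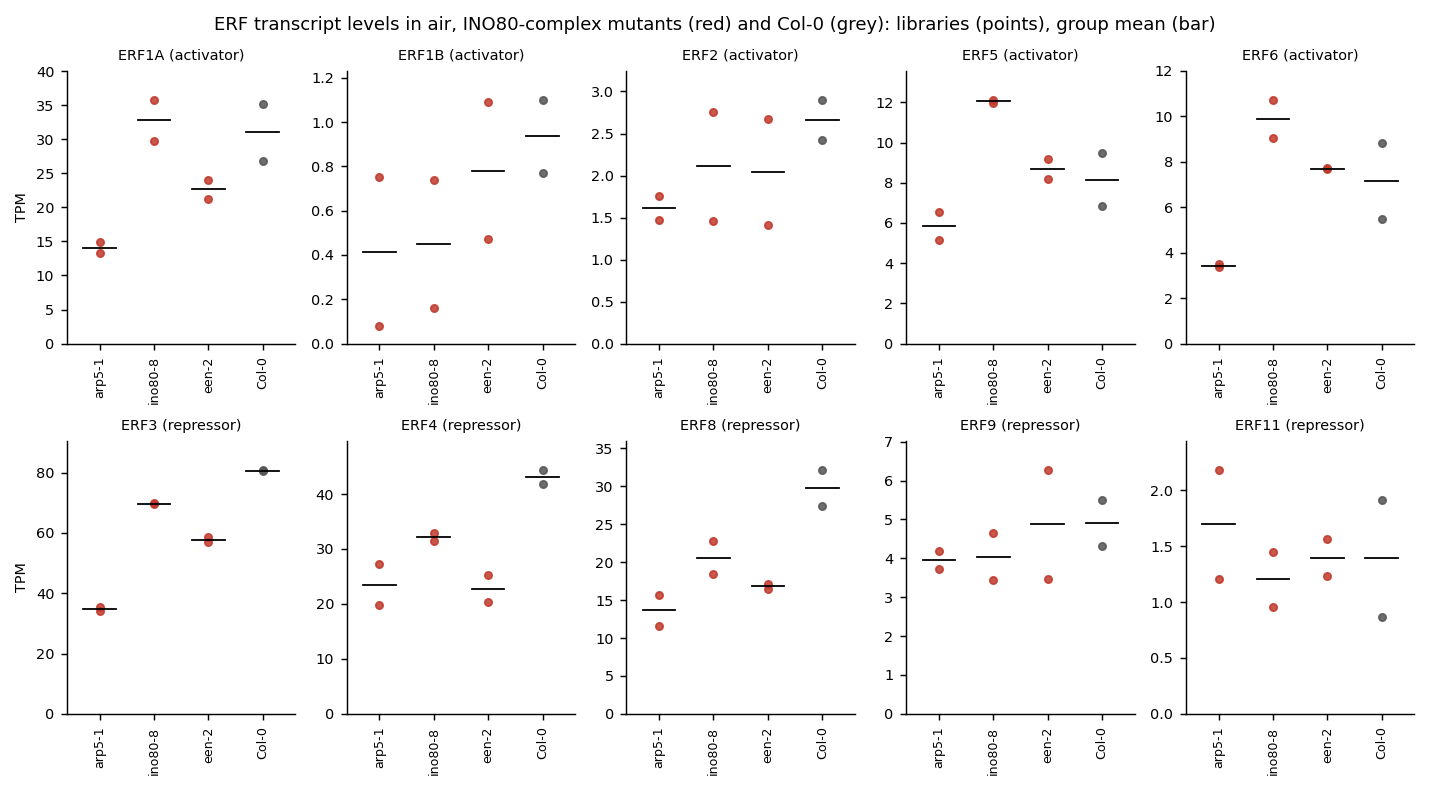
Transcript level (TPM, y axis, one scale per gene) of the 5 activators (top) and 5 repressors (bottom) in each air library of arp5-1, ino80-8, een-2 (red) and Col-0 (grey), with the mean of each group of 2 (bar). ERF3 is at 34.0 to 35.5 TPM in arp5-1, 69.4 to 69.9 in ino80-8, 57.0 to 58.6 in een-2 and 80.5 to 80.8 in Col-0.

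The 3 comparisons share the Col-0 libraries, so they are not independent of each other. The repressor share was 75.3 ± 0.0613% in arp5-1, 69.1 ± 2.28% in ino80-8 and 71.2 ± 0.273% in een-2, against 76.2 ± 1.23% in Col-0. It was thus lower than in Col-0 by more than the combined replicate SD in ino80-8 (-7.11 points, SD 2.59) and een-2 (-4.97 points, SD 1.26), but not in arp5-1 (-0.87 points, SD 1.23), where the summed TPM of both classes was lower. Without ERF1A and ERF3 the difference was -10.5 points in ino80-8 and -10.4 points in een-2. The summed TPM of the seed storage genes was 2170 to 2355 in arp5-1, 587 to 595 in ino80-8 and 408 to 554 in een-2, against 10.7 to 13.7 in Col-0. That of the photosynthesis genes RBCS1A, LHCB2.4 and LHCB1.5 was 1642 to 1846 in arp5-1, 2664 to 3418 in ino80-8 and 2656 to 2934 in een-2, against 4308 to 5974 in Col-0. None of these marker genes is at 0 in every library, and their part in the ERF values was not tested.

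The een-1 allele in Ler did not show the pattern of een-2 in Col-0. ERF4 differed by 0.09 in een-1 against Ler in air, and by -0.90 in een-2 against Col-0, ERF8 by 0.21 and -0.78, and ERF3 by 0.14 and -0.47. After rescaling the een-1 values were -0.28 for ERF4, -0.15 for ERF8 and -0.23 for ERF3, none of which passed. These values come from separate tables, and their difference was not tested.

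Of 15 other ERF genes of groups VIII and IX, 9 passed the filter in the Ler background, none of which rose after ET in Ler while 1 fell, with a median log2 fold change of -0.03 against 0.25 for all tested genes, of which 19.5% were called. Another 2 are listed at 0 in every library of that table. The gene that fell was ERF107, a regulator of wax synthesis, with 14.1 to 14.6 TPM in Ler ET, against 21.4 to 22.9 TPM in Ler air (log2 fold change -0.59, adjusted p = 0.0322). ERF106 changed by -0.58 (adjusted p = 0.0807) and ERF105 by 0.35 (adjusted p = 0.415). ERF12, the neighbour of ERF11, had 0.63 and 1.45 TPM in Ler ET, against 0.94 and 0.44 TPM in Ler air, and these overlap. TDR1, the neighbour of ERF1B, is listed at 0 in all 4 Ler libraries. In arp5-1, 6 of the 8 genes of this list that passed the filter fell, where 50.4% of all tested genes were called (4537 higher and 5613 lower).

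Of 11 genes of ET perception and signaling, all passed the filter, and 5 rose and none fell after ET in Ler, against 19.5% of all tested genes called, with a median of 0.66 against 0.25 for all tested genes. The smallest adjusted p-values were those of the receptor genes ETR2 (1.73, adjusted p = 0.000161), ERS2 (1.81, adjusted p = 0.000172) and ERS1 (1.18, adjusted p = 0.000998), while the other receptor genes of the list, ETR1 (0.21) and EIN4 (0.28), did not pass. In ein6-1 een-1, 0 of the 11 were called by limma after ET, where 0.379% of all tested genes were called. After rescaling 1 of the 11 was called, where 126 of 20534 tested genes were. In arp5-1, 9 of the 11 fell and 1 rose, where 50.4% of all tested genes were called (4537 higher and 5613 lower).

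Of 5 defence genes with a GCC box in their promoters, the defensin genes PDF1.2a, PDF1.2b and PDF1.2c are listed at 0 in every library of both tables. Neither of the other 2 was called higher after 4 hr of ET in Ler. CHI-B, which encodes a basic chitinase, fell to 24.8 and 28.3 TPM in Ler ET, against 62.4 and 63.9 TPM in Ler air (log2 fold change -1.22, SE 0.17, adjusted p = 7.73e-05), and it was also lower after ET in both single mutants (log2 fold change -1.04 for een-1, adjusted p = 0.000509, and -1.17 for ein6-1, adjusted p = 0.000122). The change of CHI-B was 0.04 in the double mutant and 0.12 in ein2-45. PR4, a hevein-like gene, had 171 to 178 TPM in Ler ET, against 131 to 152 TPM in Ler air (log2 fold change 0.30, adjusted p = 0.264).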

How the data were processed

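RNA-seq of whole dark-grown seedlings gave 28 libraries in 2 tables, 20 of the Ler background and 8 of the Col-0 background. The authors mapped reads with STAR (version 2.6.0c) to TAIR10 and deposited TPM values made with RSEM (version 1.3.0). TPM keeps no depth, so sequencing depth is unknown here and no counting interval is given. The tables hold different backgrounds, and every test stayed within a table. A further 4 columns of per-library values in the Col-0 table were not used here.

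Groups were taken from the sample labels. A gene was tested if 2 or more libraries of its table held 1 TPM or more. The test was limma (version 3.58.1, R 4.3.3) on log2(TPM + 1), with 1 mean per group, a variance trend and p-values adjusted by Benjamini-Hochberg across the whole table, and a call needed an adjusted p below 0.05. The spread was shared over all groups of a table. The fitting code was tested on simulated data. Alternatives were no TPM minimum or one of 5 TPM, a pseudocount of 0.1 or 5 TPM, median-of-ratios rescaling, a replicate block, a fit of the compared groups only, and leaving out each library. Shares were computed in Python 3.11.15 with pandas 2.3.3, and figures were drawn with matplotlib 3.10.9.

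All 10 members are named in the text. From other lists, up to 3 genes with the smallest adjusted p for ET in Ler and the neighbours of members are named, and for ERF1B and ERF11 the 3 genes most alike. Members and lists were chosen with earlier results of these data known. Positions and sequences come from RefSeq TAIR10.1 and not from the authors' files.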

Additional observations from a re-analysis of the deposited data

Results flagged for a closer look

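The response to ET differed from that of Ler by the interaction test of limma in 3 cases. For ERF11 in ein6-1 een-1 the difference was -1.69 on the log2(TPM + 1) scale (adjusted p = 0.00275, and 0.129 with a pseudocount of 0.1 TPM), and for ERF11 in ein2-45 it was -2.83 (adjusted p = 1.15e-05). For ERF2 in ein2-45 it was -2.05 (adjusted p = 0.000519). These comparisons share the Ler libraries.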

How the results depend on the processing

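With all libraries, 21 calls on members were made in the Ler background and 8 in Col-0. No fold change called with all libraries changed direction under any alternative, whereas the uncalled difference in repressor share for ET in ein6-1 (4.14 points) was -0.37 without ein6-1 air replicate 1 and -0.91 without the most abundant member of each class. Rescaling gave 26 calls in the Ler background, 19 of them shared, and 8 in Col-0, while the compared groups alone gave 27 (20 shared) and 7. The pseudocount of 0.1 TPM gave 18 (17 shared) and that of 5 TPM 23 (21 shared), the minimum of 5 TPM gave 18 (18 shared), under which ERF1B was not tested in the Ler background, and no minimum gave 20 (19 shared). For ET in ein6-1 een-1 the count of 1 was 0 with the minimum of 5 TPM and with the pseudocount of 0.1 TPM. In air against Ler, een-1 had 1 call with rescaling and with the compared groups only, against 0. The double mutant had 4 with rescaling and 1 with the pseudocount of 0.1 TPM, against 2, and ein2-45 had 5 with rescaling and 4 with the compared groups only, against 2. For the ET response of the double mutant the count of 1 was 0 with the pseudocount of 0.1 TPM, 2 with that of 5 TPM and 3 with the compared groups only. The cause of these shifts was not tested. With rescaling, 24.7% of all tested genes were called for een-1 in air, against 23.7% before. For the double mutant in air this was 37.3%, against 34.8%, and for ein2-45 in air 23.2%, against 15.8%. The share over all tested genes is not given for the other alternatives or for fits without 1 library, so their counts describe the member calls only. Leaving out each library, with a lone library assumed to vary like the other groups, gave 3 to 6 calls for ET in Ler, 3 to 7 in ein6-1 and 0 to 1 in the double mutant. In air it gave 0 to 1 for een-1, 0 to 3 for the double mutant, 1 to 5 for ein2-45 and 0 to 3 for een-2. For the response it gave 0 to 2 for ein6-1 and 1 to 2 for the double mutant. Without the most abundant member of each class the difference in repressor share was -5.11 points for ET in Ler, -10.4 for een-2 and -10.5 for ino80-8, against -0.83, -4.97 and -7.11. For ET in ein6-1 een-1 this difference was -0.86 points, against -3.23 with all members. The deviations of same-numbered replicates correlated at r = -0.267 to 0.265 over 45 pairs of groups in the Ler background, with 11 above 0.1. In Col-0 they correlated at -0.0753 to 0.186 over 6 pairs, with 1 above 0.1. Whether some groups shared a batch was not tested. The replicate block gave 21 and 8 calls, all shared. The depth of the libraries is unknown.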
